A study of Mus musculus with 4 samples.

Results

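The genes *Cx3cr1*, *P2ry12*, *Csf1r*, *Trem2*, *Tmem119*, *C1qa*, *C1qb* and *C1qc*, which mark resting microglia and the complement factor they make, were followed through single-nucleus RNA sequencing of the mouse hypothalamus. These 8 of the 32285 genes in the count matrices were taken as a named list. Unique molecular identifiers (UMIs, which count captured transcripts) were summed per library over the nuclei of each main cluster given by the authors. Comparisons by genotype used the 1779 of 56386 annotated nuclei in the cluster named Microglia, Macrophages, called the microglial cluster here. The authors named it in part from *C1qa* and *Cx3cr1*, so the height of the 8 genes in it is a description and was not tested.

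Adult male mice on the C57/BL6NCr background were either wild type or TRα1+m, that is, heterozygous for a point mutation that lowers the affinity of thyroid hormone receptor α1 for its ligand. Mutants kept a normal copy of the receptor gene, and no treatment of these animals is given. Frozen hypothalami of 3 mice of a genotype were pooled as nuclei into each library, and both genotypes were run in each of 2 experimental repeats. The 4 libraries therefore came from 12 mice, with n = 2 pools per genotype. In repeat 1 the microglial cluster held 412 wild-type and 507 TRα1+m nuclei, and in repeat 2 it held 468 and 392. Its UMIs summed to between 616935 and 858073 per library. Of 56077 barcodes of annotated nuclei, 309 occurred in more than 1 library. No barcode was shared by 2 nuclei of the microglial cluster, but 24 of its 1779 barcodes also named a nucleus of another cluster in another library.

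Microglia are the resident macrophages of the brain, and their survival depends on CSF1R, the receptor for the cytokines CSF1 and IL-34. CX3CR1 receives the neuronal ligand fractalkine (*Cx3cl1*), P2RY12 senses nucleotides released by nearby cells, and TREM2 binds lipids and signals through the adaptor TYROBP. Microglia also make most of the C1q of the brain, the starter of the classical complement cascade, which is assembled from equal numbers of A, B and C chains. TMEM119 is a surface protein used to tell microglia from other macrophages.

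The C1q genes lie side by side on the minus strand of chromosome 4 in GRCm38, the build of the files. In the GENCODE M21 annotation *C1qb* is at chr4:136880129-136886187, *C1qc* at chr4:136889804-136893065 and *C1qa* at chr4:136895917-136898803. They span 6.06, 3.26 and 2.89 kb. *Tmem119* (chr5:113793729-113800516, minus strand) and *Trem2* (chr17:48346401-48354147, plus strand) span 6.79 and 7.75 kb. *Csf1r*, on chromosome 18, spans 31.6 kb. The receptor genes *P2ry12* (chr3:59216272-59262871, minus strand) and *Cx3cr1* (chr9:119901616-120069879, minus strand) span 46.6 and 168 kb. *P2ry12* lies inside *Med12l*, a gene of the opposite strand at chr3:59005825-59318682, and the annotated span of *Cx3cr1* holds other genes on both strands, *Ttc21a* and *Csrnp1* among them.

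Promoters of *C1qb*, *C1qc* and *Trem2* are printed because these genes differed together between the experimental repeats, as described further on. The sequences are RefSeq promoters of GRCm38.p6, running from 250 bases before the start site to 50 bases after it. Capitals mark the letters GAGGAA on either strand, a core bound by the myeloid factor PU.1.

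C1qb, chr4:136886151-136886450, minus strand: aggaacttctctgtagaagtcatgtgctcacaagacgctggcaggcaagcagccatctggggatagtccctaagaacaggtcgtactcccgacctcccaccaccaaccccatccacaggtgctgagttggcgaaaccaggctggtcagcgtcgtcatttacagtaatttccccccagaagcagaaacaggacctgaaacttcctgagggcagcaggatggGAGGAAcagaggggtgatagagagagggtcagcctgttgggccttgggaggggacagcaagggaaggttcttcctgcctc

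C1qc, chr4:136892865-136893164, minus strand: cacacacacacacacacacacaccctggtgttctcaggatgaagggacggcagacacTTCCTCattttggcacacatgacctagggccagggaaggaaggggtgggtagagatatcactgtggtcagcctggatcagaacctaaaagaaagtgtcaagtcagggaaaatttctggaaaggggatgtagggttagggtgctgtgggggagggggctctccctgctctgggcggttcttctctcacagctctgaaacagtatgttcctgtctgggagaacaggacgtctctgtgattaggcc

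Trem2, chr17:48346151-48346450, plus strand: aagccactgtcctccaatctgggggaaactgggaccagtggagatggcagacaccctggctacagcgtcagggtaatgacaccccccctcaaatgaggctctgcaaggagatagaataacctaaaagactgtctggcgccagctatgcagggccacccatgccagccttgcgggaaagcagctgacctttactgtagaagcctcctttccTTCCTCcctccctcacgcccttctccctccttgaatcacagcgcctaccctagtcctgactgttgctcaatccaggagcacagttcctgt

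Each of these promoters held 1 match to GAGGAA, in *C1qb* on the strand of the gene starting 30 bases before the start site, and in *C1qc* and *Trem2* on the other strand. The promoters of *Cx3cr1* and *P2ry12* held none, and no RefSeq promoter was found for *C1qa*, *Csf1r* or *Tmem119*. Of 32851 promoters of the same length, 28.3% held this motif. A longer composite bound by ETS and IRF factors together, GGAA and TGAAA with any 1 base between them, was in none of the 5 and in 0.731% of all promoters. A match is a run of letters and was not tested as a binding site.

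The label of the cluster was checked with a panel of 20 further microglial genes that holds none of the 8. At least 2 of these panel genes had a UMI in 1334 of the 1779 nuclei (75.0%), against 10.0% of Neurons_1 nuclei, 3.83% of astrocytes, 3.62% of oligodendrocytes and 7.58% of oligodendrocyte progenitors (OPCs). By library it was 77.4% in wild type and 79.5% in TRα1+m in repeat 1, and 70.5% and 71.9% in repeat 2. The other 445 nuclei of the cluster were low for every one of the 8 genes, with a UMI of *C1qb* in 5.17% of them, *C1qa* in 3.37% and *Csf1r* in 0.674%. In Neurons_1 nuclei *C1qa* had a UMI in 3.40% and *Csf1r* in 1.58%, at a higher depth. Sums over the whole cluster therefore mix nuclei with microglial transcripts and nuclei nearly without them. Markers of pericytes and smooth muscle were also present, and at least 2 of 6 such genes had a UMI in 6.31% to 7.91% of the cluster's nuclei in the 4 libraries. For 10 genes of perivascular and meningeal macrophages this share was 1.94% to 4.34%. The share was higher for 6 astrocyte genes (26.3% to 45.8%) and 6 oligodendrocyte genes (33.7% to 48.5%). It was also higher in each library for 6 neuronal genes, at up to 46.2%. For 6 fibroblast and leptomeningeal genes it was 6.55% to 9.62%. Genes of OPCs, of endothelial cells, and of lymphoid cells and neutrophils reached at most 1.21%, 1.28% and 0.243%. The source of these UMIs was not tested.

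Levels were ordered over 5 main clusters, the microglial cluster, Neurons_1, astrocytes, oligodendrocytes and OPCs. Among these the microglial cluster was highest for each of the 8 genes in 4 of 4 libraries, and no library of the other 4 reached its range. Levels are given in CPM, the UMIs of a gene scaled to the total of its cluster in that library, as mean ± SD over n = 4 libraries. Neurons_2 was left out of the order, because 1 UMI of *P2ry12* gave 896 CPM in its wild-type library of repeat 2. The non-neuronal cluster, which the authors did not analyse further, was left out as well. *Cx3cr1* was at 724 ± 208 CPM in the microglial cluster and next at 16.8 ± 4.34 CPM in astrocytes. That cluster holds tanycytes, the ependymal cells of the third ventricle, with *Cx3cr1* at 41.9 ± 12.7 CPM, and its astrocyte sub-cluster was at 11.4 ± 2.85 CPM, against 13.6 ± 3.23 CPM in oligodendrocytes. *Csf1r* was at 616 ± 297 CPM and next at 9.08 ± 1.84 CPM in oligodendrocytes. *Trem2* reached 467 ± 407 CPM, against 5.97 ± 0.919 CPM in oligodendrocytes. *Tmem119* reached 169 ± 142 CPM, against 2.96 ± 1.06 CPM in oligodendrocytes. The large SDs of *Trem2* and *Tmem119* come from a split between repeats that is described next.

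*C1qa*, the A chain, was at 1252 ± 1036 CPM in the microglial cluster, 20.3 ± 7.14 CPM in oligodendrocytes, 18.1 ± 4.41 CPM in astrocytes, 12.8 ± 0.773 CPM in OPCs and 7.85 ± 2.29 CPM in Neurons_1. *C1qb* and *C1qc* kept this order of clusters, from 1043 ± 877 and 843 ± 683 CPM in the microglial cluster to 8.76 ± 2.40 and 5.92 ± 1.67 CPM in Neurons_1. Below the microglial cluster most neighbours in the order could not be told apart. The ranges of the 4 libraries overlapped between oligodendrocytes and astrocytes for each C1q chain, and likewise between astrocytes and OPCs. *P2ry12* alone had no overlap at any step, from 722 ± 190 CPM in the microglial cluster to 40.6 ± 4.26 in Neurons_1, 29.1 ± 2.24 in OPCs, 24.1 ± 1.18 in astrocytes and 10.3 ± 2.10 in oligodendrocytes.

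The microglial cluster made up 3.16% of the nuclei and held between 21.0% (*P2ry12*) and 70.1% (*Trem2*) of the UMIs of each gene in annotated nuclei, but the shares differed by library. In repeat 1 *Csf1r* had the highest share, 53.5% in wild type and 46.5% in TRα1+m, followed by *Cx3cr1* at 43.8% and 38.3%, while *Trem2* was at 34.1% and 38.1% and *C1qb* at 24.7% and 21.2%. In repeat 2 *Trem2* was at 79.3% and 84.1%, *C1qb* at 72.6% and 75.8% and *Cx3cr1* at 55.4% and 58.1%. *P2ry12* stayed at 15.8% to 26.3% in the 4 libraries, with 70.7% of its UMIs in Neurons_1 overall.

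**Figure D1:**
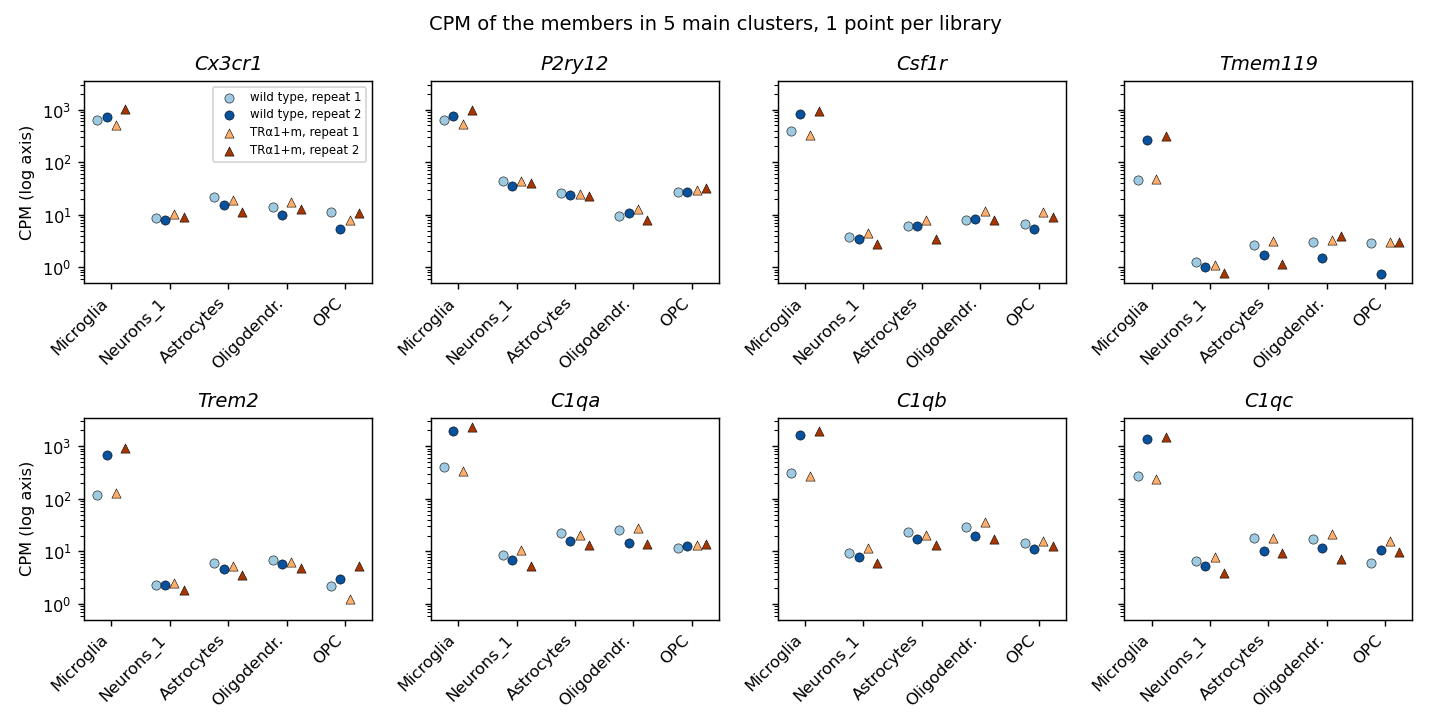
CPM of the 8 genes (log axis) in 5 main clusters, with 1 point per library, circles for wild type and triangles for TRα1+m, light for repeat 1 and dark for repeat 2. Every gene is highest in the microglial cluster in 4 of 4 libraries, and *P2ry12* stands at 40.6 ± 4.26 CPM in Neurons_1 against 9.05 ± 1.04 CPM of *Cx3cr1*.

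The libraries separated by experimental repeat, most widely for the C1q chains, *Trem2* and *Tmem119*. Both repeats held a pool of each genotype, so the comparison of repeats addresses how stable the levels of these genes were between independent preparations. In the microglial cluster *C1qa* was at 399 CPM in the wild-type and 333 CPM in the TRα1+m library of repeat 1, and at 1938 and 2337 CPM in repeat 2. *C1qb* was at 309 and 269 CPM in repeat 1 and at 1672 and 1921 CPM in repeat 2. *C1qc* was at 271 and 237 CPM in repeat 1 and at 1348 and 1514 CPM in repeat 2. Both libraries of repeat 2 stood far above both libraries of repeat 1 for each chain.

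*Trem2* was at 119 CPM in wild type and 129 CPM in TRα1+m in repeat 1, and at 690 and 929 CPM in repeat 2. *Tmem119* was at 45.4 and 48.3 CPM in repeat 1 and at 261 and 319 CPM in repeat 2, on 29 to 224 UMIs per library. The same split held for *Csf1r*, at 393 and 331 CPM in repeat 1 and 816 and 924 CPM in repeat 2. Its gap between repeats was narrower than for *Trem2* and *Tmem119*. *Cx3cr1* was at 639 and 517 CPM in repeat 1 and at 734 and 1005 CPM in repeat 2. *P2ry12* was at 636 and 521 CPM in repeat 1 and at 767 and 964 CPM in repeat 2. For these receptors the repeats did not overlap either, but the nearest libraries lay close together.

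In edgeR's quasi-likelihood test with genotype in the model and Benjamini-Hochberg adjustment over 10451 genes, 6 of the 8 genes were higher in repeat 2, while 3.22% of all tested genes were. The log2 fold change of repeat 2 over repeat 1 was 2.66 (SE 0.22) for *Trem2*, 2.60 (SE 0.22) for *C1qb*, 2.59 (SE 0.24) for *Tmem119*, 2.51 (SE 0.22) for *C1qa* and 2.46 (SE 0.22) for *C1qc*. Adjusted p-values of these genes were at most 7.43e-24, and the 5 genes stood among the first 7 by p of the 337 genes that were higher. The other 2 of these, named after their values were seen, were the pituitary hormone genes *Cga* and *Tshb*. *Csf1r* had a log2 fold change of 1.23 (SE 0.21, adjusted p = 2.26e-07). *Cx3cr1* and *P2ry12* each had 0.54 (SE 0.20) and did not pass, with adjusted p = 0.0949 and 0.0943. The median log2 fold change was 2.48 over the 8 genes and 0.010 over all 10451. Such small p-values rest on a spread pooled across genes, with n = 2 pools per repeat. After every nucleus was thinned to 900 UMIs, the lowest adjusted p of the 8 genes was 4.37e-05 and the same 6 passed. Of all 8116 genes tested after thinning, 122 were higher in repeat 2. Without the TRα1+m library of repeat 1, *Csf1r* no longer passed.

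**Figure D2:**
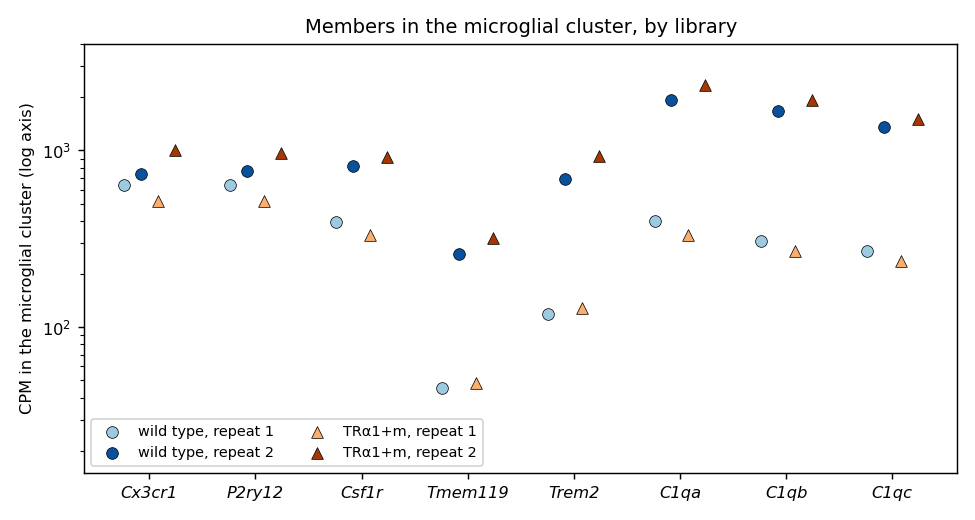
CPM of the 8 genes in the microglial cluster (log axis), with 1 point per library. *C1qa* stands at 333 and 399 CPM in repeat 1 (light symbols) and at 1938 and 2337 CPM in repeat 2 (dark symbols). For *Cx3cr1* the genotypes of repeat 2 (734 and 1005 CPM) lie farther apart than the wild-type libraries of the 2 repeats (639 and 734 CPM).

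The difference was also seen in a subset of the same cluster, picked by panel genes that include none of the 8. The cluster itself was named in part from *C1qa* and *Cx3cr1*, so this subset is not independent of the 8 genes. In the 1334 nuclei with at least 2 panel genes, the log2 fold change of repeat 2 over repeat 1 was 2.91 (SE 0.25) for *Trem2*, 2.88 (SE 0.25) for *Tmem119*, 2.84 (SE 0.26) for *C1qb*, 2.74 (SE 0.26) for *C1qa* and 2.68 (SE 0.25) for *C1qc*. There *Cx3cr1* and *P2ry12* passed as well, at 0.76 (SE 0.24, adjusted p = 0.0276) and 0.75 (SE 0.23, adjusted p = 0.0278) in edgeR. Of all 8859 genes tested in these nuclei, 257 were higher in repeat 2. The panel was not neutral in this respect, since 8 of its 20 genes were themselves higher in repeat 2. The median panel nucleus held 1309 and 1345 UMIs in the wild-type and TRα1+m libraries of repeat 1 and 1577 and 1323 in repeat 2.

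Among these panel nuclei the C1q chains summed to a median of 1 UMI per nucleus in both libraries of repeat 1, and to 12 in wild type and 11.5 in TRα1+m in repeat 2. A nucleus at the 90th percentile held 4 such UMIs in both libraries of repeat 1 and 22 and 21 in repeat 2. The highest nucleus of repeat 1 had 12, which was the median of the wild-type library of repeat 2. The whole distribution was displaced, and no small group of nuclei carried the difference. All 3 chains were detected together in 14.7% and 8.19% of the nuclei in repeat 1 and in 80.3% and 80.1% in repeat 2. None was detected in 23.5% and 30.5% in repeat 1 and in 5.76% and 3.90% in repeat 2. Of the 8 genes, the median panel nucleus showed 3 in both libraries of repeat 1 and 7 in both libraries of repeat 2. All 8 were found in 0 of 319 wild-type and 0 of 403 TRα1+m nuclei in repeat 1, against 73 of 330 and 69 of 282 in repeat 2.

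**Figure D3:**
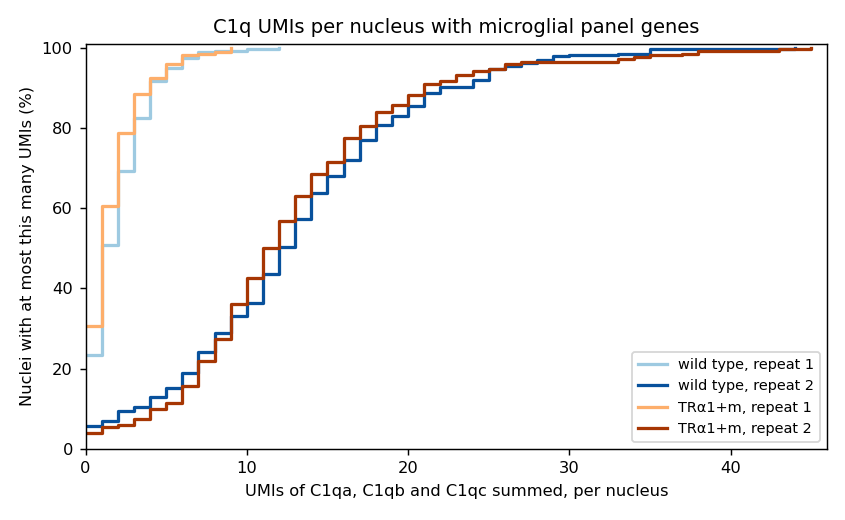
Cumulative share of panel nuclei (percent) by the UMIs of *C1qa*, *C1qb* and *C1qc* summed per nucleus, 1 line per library. The lines of repeat 1 reach 100% at 12 UMIs or below, while those of repeat 2 reach their medians at 12 and 11.5 UMIs.

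Shares of nuclei with a UMI separated the repeats as well. *C1qa* had a UMI in 40.3% of the cluster's nuclei in wild type (exact binomial 95% interval 35.5 to 45.2) and 34.9% in TRα1+m (30.8 to 39.2) in repeat 1, and in 65.6% (61.1 to 69.9) and 67.3% (62.5 to 72.0) in repeat 2. *Tmem119* had one in 7.04% (4.76 to 9.95) and 6.90% (4.86 to 9.47) in repeat 1, and in 31.8% (27.6 to 36.3) and 33.2% (28.5 to 38.1) in repeat 2. These intervals do not overlap between repeats. For *Cx3cr1* the shares were 49.5% (44.6 to 54.5) and 45.8% (41.4 to 50.2) in repeat 1 and 56.2% (51.6 to 60.7) and 58.4% (53.4 to 63.3) in repeat 2, so that the wild-type libraries overlapped. The intervals cover counting error within a library and not the spread between pools. With every nucleus thinned to 900 UMIs, *C1qa* was detected in 28.4% and 27.4% in repeat 1 and in 60.7% and 63.5% in repeat 2. The share of Neurons_1 nuclei with a *C1qa* UMI was 3.60% and 4.23% in repeat 1 and 3.11% and 2.20% in repeat 2, at a median of 4380 UMIs per nucleus against 1447 in the microglial cluster.

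In Neurons_1, astrocytes and oligodendrocytes the C1q chains differed in the other direction. In Neurons_1 *C1qa* was at 8.73 CPM in wild type and 10.5 CPM in TRα1+m in repeat 1, and at 6.96 and 5.19 CPM in repeat 2. In oligodendrocytes it was at 25.5 and 27.3 CPM in repeat 1 and at 14.4 and 13.9 CPM in repeat 2. All 3 chains were lower in repeat 2 in edgeR in Neurons_1, with log2 fold changes from -0.70 to -0.63 (adjusted p at most 0.0405), where 12% of all tested genes were lower. They were lower in astrocytes, from -0.92 to -0.60 (adjusted p at most 0.0218, 11.0% of all genes lower), and in oligodendrocytes, from -1.04 to -0.81 (adjusted p at most 0.00901, 7.27% lower). In OPCs none of the 6 tested members passed, and 5.68% of all genes were lower. There *C1qa* was at 12.4 ± 0.829 CPM in repeat 1 and 13.3 ± 0.587 CPM in repeat 2 (SD, n = 2). *Cx3cr1* was lower in repeat 2 in astrocytes (log2 fold change -0.63, SE 0.21, adjusted p = 0.0209). No other test of a member passed in these 4 clusters. *Tmem119* in astrocytes had the largest such log2 fold change, -1.04 (SE 0.52, adjusted p = 0.153).

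**Figure D4:**
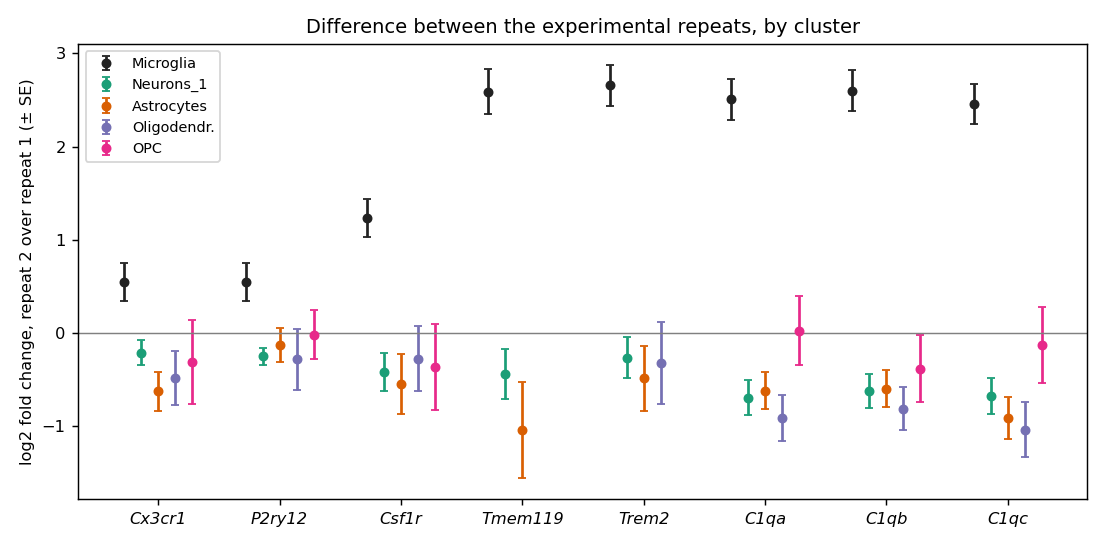
Log2 fold change of repeat 2 over repeat 1 (± SE, edgeR, n = 2 pools per repeat) for the 8 genes in each of 5 main clusters. Black points of the microglial cluster lie from 0.54 to 2.66, and the C1q chains lie from -1.04 to -0.60 in Neurons_1, astrocytes and oligodendrocytes. *Tmem119* and *Trem2* were too low to be tested in OPCs, as was *Tmem119* in oligodendrocytes.

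The difference between the repeats was itself compared between clusters, by testing an interaction of repeat and cluster in edgeR, with a term for each library. It was larger in the microglial cluster than in Neurons_1 for 8 of the 8 genes, where 1.09% of all tested genes were called in this direction. Against astrocytes 7 of the 8 were called (0.359% of all genes), against oligodendrocytes 6 (0.414%) and against OPCs the 3 C1q chains (0.173%). *P2ry12* did not pass against astrocytes, oligodendrocytes or OPCs. The microglial share of the *C1qa* UMIs in annotated nuclei moved accordingly, from 31.1% and 27.3% in the libraries of repeat 1 to 77.6% and 80.5% in those of repeat 2.

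The mix of the transcripts also depended on the cluster. In the microglial cluster there were 1.53 and 1.62 C1q UMIs per *Cx3cr1* UMI in the wild-type and TRα1+m libraries of repeat 1, and 6.75 and 5.74 in repeat 2. In Neurons_1 the ratio was 2.84 and 2.86 in repeat 1 and 2.50 and 1.71 in repeat 2. Neurons_1 thus lay above the microglial cluster in both libraries of repeat 1 and below it in both of repeat 2. The chains themselves stayed in a nearly fixed proportion within the microglial cluster. *C1qa* made up 40.8% and 39.7% of the C1q UMIs in repeat 1 and 39.1% and 40.5% in repeat 2, although these rested on 625 and 643 UMIs in repeat 1 and 4255 and 3561 in repeat 2. Over the 4 libraries its share was 39.8% (exact binomial 95% interval 38.8 to 40.8) in the microglial cluster and 34.9% (33.4 to 36.4) in Neurons_1. *C1qb* showed the reverse, with 33.3% (32.3 to 34.3) against 38.8% (37.3 to 40.4). These intervals treat the summed UMIs as independent draws and do not cover the spread between pools. Within a library, the *C1qa* intervals of these clusters overlapped in both wild-type libraries and in TRα1+m of repeat 1. They did not overlap in TRα1+m of repeat 2 (38.9 to 42.1 against 30.1 to 38.3). *C1qa* was ahead of *C1qb* in 4 of 4 libraries in the microglial cluster and behind it in 4 of 4 in Neurons_1. The lower *C1qa* share was not particular to Neurons_1. Over the 4 libraries *C1qa* made up 35.6% in astrocytes, 33.8% in oligodendrocytes and 34.4% in OPCs, and *C1qb* 36.9%, 42.5% and 36.8%. These shares are of UMIs and were not corrected for transcript length. Whether the C1q UMIs of Neurons_1 came from its own nuclei was not tested.

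**Figure D5:**
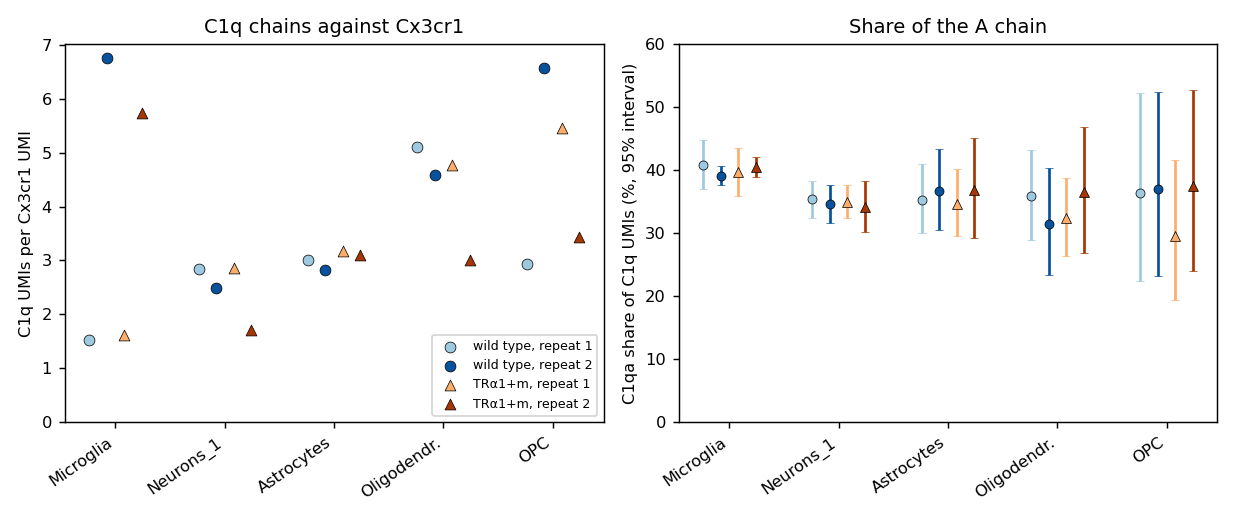
Left, C1q UMIs (3 chains summed) per *Cx3cr1* UMI in 5 main clusters, 1 point per library. Right, share of *C1qa* among C1q UMIs (percent) with exact binomial 95% intervals. The microglial cluster lies at 1.53 and 1.62 in repeat 1 and at 6.75 and 5.74 in repeat 2, while its *C1qa* share stays between 39.1% and 40.8%.

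*P2ry12* had the highest mean level of the 8 genes in Neurons_1, OPCs and astrocytes. In oligodendrocytes, at 10.3 CPM, it was below *C1qb*, *C1qa*, *C1qc* and *Cx3cr1*. It had a UMI in 16.7% of Neurons_1 nuclei, and in 3.69% once nuclei were thinned to 900 UMIs, against 4.03% and 0.797% for *Cx3cr1*. There were 4.48 *P2ry12* UMIs per *Cx3cr1* UMI in Neurons_1 and 1.00 in the microglial cluster. Across 13 neuronal sub-clusters of at least 100 nuclei, *P2ry12* ran from 17.0 ± 4.32 CPM in orexin neurons to 62.7 ± 20.2 CPM in NPY/AgRP neurons, and *Med12l* from 126 ± 26.7 CPM in orexin neurons to 292 ± 24.0 CPM in NPY/AgRP neurons. Over these 13 means Pearson's r was 0.902 (Spearman's rho 0.830) between *P2ry12* and *Med12l*, and Pearson's r was 0.185 between *P2ry12* and *Cx3cr1*. Both are descriptions, since the sub-clusters share the same 4 libraries. *Med12l* was at 204 ± 22.8 CPM in the microglial cluster and 230 ± 14.3 CPM in Neurons_1. Whether counting used the strand is not given in the sources used here. Whether reads of *Med12l* entered the counts of *P2ry12* was not tested. *P2ry13*, a microglial gene that lies beside *P2ry12* and also inside *Med12l*, was at 0.687 ± 0.108 CPM in Neurons_1 and 97.3 ± 57.8 CPM in the microglial cluster. *P2ry14*, likewise inside *Med12l* on the opposite strand, was at 251 ± 104 CPM in Neurons_1, 153 ± 45.5 in OPCs, 104 ± 27.0 in astrocytes, 59.1 ± 11.9 in the microglial cluster and 18.9 ± 8.29 in oligodendrocytes.

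The study asked what impaired thyroid hormone signalling through TRα1 does to the cells of the hypothalamus, and for microglia the comparison of genotypes addresses this. No difference between genotypes was detected in any of the 8 genes. In the microglial cluster 0 of 10451 genes passed an adjusted p of 0.05 in edgeR (0% called), with 226 at an unadjusted p below 0.05, and DESeq2 also called 0. The log2 fold changes of TRα1+m over wild type lay between 0.05 for *Csf1r* and 0.38 for *Trem2*, with SEs from 0.32 for *P2ry12* to 1.37 for *Trem2*. *C1qa* was at 1169 ± 1088 CPM in wild type and 1335 ± 1418 CPM in TRα1+m (SD, n = 2), a log2 fold change of 0.19 (SE 1.32, adjusted p = 1.00). An exact permutation test of 2 pools against 2 cannot go below p = 0.333.

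The spread between repeats made up most of these errors. With the repeat as a block the SEs of the 8 genes fell to between 0.20 and 0.23, and 35 genes were called in the microglial cluster (0.335% of those tested), none of them a member. The largest blocked log2 fold changes among the 8 were 0.30 (SE 0.21, adjusted p = 0.972) for *Trem2* and 0.23 (SE 0.23, adjusted p = 0.994) for *Tmem119*. *C1qa* stood at 0.02 (SE 0.21), *Cx3cr1* at 0.08 (SE 0.20) and *Csf1r* at -0.03 (SE 0.20). Within a repeat the fold of TRα1+m over wild type in CPM was 0.81 to 1.09 in repeat 1 and 1.12 to 1.37 in repeat 2. *Trem2* and *Tmem119* were higher in TRα1+m in both repeats, by 1.09 and 1.06 times in repeat 1 and 1.35 and 1.22 times in repeat 2. The other 6 were lower in repeat 1 and higher in repeat 2.

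In nuclei with at least 2 panel genes 0 of 8859 genes were called between genotypes (0%), with 104 at an unadjusted p below 0.05 and 0 in DESeq2. There the log2 fold changes of the 8 genes lay between 0.03 and 0.36. In the other clusters no member was called either, where 0 of 19926 genes were called in Neurons_1 (193 at an unadjusted p below 0.05, DESeq2 1), 0 of 14797 in astrocytes (255, DESeq2 1), 13 of 12630 in oligodendrocytes (0.103%) and 0 of 11248 in OPCs (185, DESeq2 1). The members' log2 fold changes ran from -0.30 to 0.15 in Neurons_1, from -0.27 to 0.04 in astrocytes, from -0.15 to 0.42 in oligodendrocytes and from 0.07 to 0.72 in OPCs.

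Genes around the 8 were read from fixed lists within the microglial cluster. Of the 20 panel genes 8 were higher in repeat 2 and none was lower. *Ctss*, the protease cathepsin S, was at 600 and 536 CPM in repeat 1 and 1031 and 1321 CPM in repeat 2 (log2 fold change 1.00, SE 0.20). The other 12 did not pass. Among these, chosen after their values were seen, *Ly86*, *Runx1* and *Ikzf1* had log2 fold changes of 0.23, -0.03 and -0.39. Of 12 tested genes linked to these receptors (ligands, related receptors, signalling genes and transcription factors), 3 were higher in repeat 2. *Tyrobp*, the adaptor of TREM2, was at 57.9 and 58.7 CPM in repeat 1 and 206 and 203 CPM in repeat 2 (log2 fold change 1.77, SE 0.23, adjusted p = 1.05e-11). The others were *P2ry13* and *Tgfb1*. The lists overlap, since *P2ry13* is also a panel gene and *Tyrobp* is also on the list of activated microglia given below. *Plcg2*, a phospholipase downstream of TREM2, had 0.18 (SE 0.22, adjusted p = 0.785).

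Of 13 tested complement genes beyond C1q, 2 were higher in repeat 2, *Itgb2* (log2 fold change 1.64, SE 0.31), a subunit of complement receptor 3, and *C3ar1* (1.16, SE 0.32), the C3a receptor. Both were picked after their values were seen. *Csmd3* was at 3020 and 2739 CPM in repeat 1 and 2070 and 2209 CPM in repeat 2 and did not pass. Of 6 tested genes of activated microglia 4 were higher in repeat 2, among them *Cd9* (1.73, SE 0.21), while *Apoe*, a lipid carrier, had 0.49 (SE 0.21, adjusted p = 0.188). With the repeat as a block, *Csmd1* of the complement list was called between genotypes (adjusted p = 0.000809), with 666 CPM in the TRα1+m library of repeat 2 against 191 to 260 CPM in the other libraries. *Igf2* (adjusted p = 0.0157) and *Cldn5* (0.0477), of the leptomeningeal and endothelial lists, were the only other list genes so called. Both rested on low levels. *Igf2* was at 15.7 CPM in wild type and 30.0 CPM in TRα1+m in repeat 1, and at 39.6 and 110 CPM in repeat 2. For *Cldn5* these were 4.70 and 14.4 CPM, and 5.83 and 32.4 CPM.

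Markers of other cells in the cluster moved with the repeat too, and their part in the differences was not tested. Of 6 fibroblast and leptomeningeal genes 3 were higher in repeat 2, and the list summed to 435 and 324 CPM in repeat 1 and 726 and 885 CPM in repeat 2. *Dcn*, a proteoglycan gene, had a log2 fold change of 1.41 (SE 0.21), and *Col1a2*, a collagen gene, 0.03 (SE 0.26). Pericyte and smooth muscle genes summed to 467 and 368 CPM in repeat 1 and 510 and 759 CPM in repeat 2, with 2 of 5 tested higher. Of the highest members of that list *Atp13a5* had a log2 fold change of 0.63 (SE 0.21, adjusted p = 0.0410 in edgeR) and *Abcc9* 0.39 (SE 0.25). Endothelial genes summed to 95.5 and 99.2 CPM in repeat 1 and 188 and 232 CPM in repeat 2, with 1 of 4 tested higher. This was *Mecom*, at 1.95 (SE 0.27), while *Flt1*, a receptor for vascular endothelial growth factor, had 0.40 (SE 0.45). Of 5 tested genes of border macrophages only *F13a1* passed, at a log2 fold change of -0.95 (SE 0.23), and *Dab2* had -0.67 (SE 0.24). *F13a1* was highest in the TRα1+m library of repeat 1 (218 CPM), against 92.4 CPM in wild type there and 69.9 and 85.9 CPM in repeat 2. Astrocyte genes summed to 1273 and 1457 CPM in repeat 1 and 1092 and 976 CPM in repeat 2, and the glutamate transporter genes *Slc1a2* (-0.62, SE 0.20) and *Slc1a3* (-0.66, SE 0.20) were the 2 of 6 that were lower. Genes of neurons summed to 823 to 1143 CPM, with none of 6 called, and the synaptic genes *Snap25* and *Syt1* had 0.32 (SE 0.20) and -0.56 (SE 0.21). Of 6 oligodendrocyte genes 1 was lower, and the myelin gene *Mbp* had -0.38 (SE 0.20) and did not pass. None of 3 OPC genes passed, with *Pdgfra* at 0.08 (SE 0.30) and *Vcan* at 0.09 (SE 0.37). No lymphoid or neutrophil gene was high enough to be tested. Without the block, no gene of any list was called between genotypes. The median share of mitochondrial UMIs per nucleus was 2.46% and 2.14% in repeat 1 and 2.33% and 1.51% in repeat 2. Of 80 ribosomal protein genes, a list chosen after values were seen, 40 were lower in repeat 2 and 1 was higher in the microglial cluster, where 3.04% of all tested genes were lower. In the other 4 clusters 34 to 56 of 80 or 81 were lower, beside 5.68% to 12% of all genes. Hormone genes of other cells moved as far as the C1q chains. *Tshb* was at 18.8 and 31.3 CPM in repeat 1 and 218 and 229 CPM in repeat 2 (log2 fold change 3.11, SE 0.27), and *Cga* at 229 and 52.2 and at 1007 and 592 CPM (2.67, SE 0.22). *Oxt*, of oxytocin neurons, was at 883 and 543 CPM in repeat 1 and 114 and 68.1 CPM in repeat 2 (-3.01, SE 0.23), the lowest p of all genes tested.

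Gene length was set beside the repeat difference. Across 10446 genes of the microglial cluster with a length, Pearson's r between log10 length and the log2 fold change was 0.0301, a description across genes, which are not independent replicates. The median log2 fold change was -0.051 for 1900 genes under 10 kb and -0.031 for 2090 genes over 100 kb. The 5 shortest of the 8 genes were the 5 with the largest difference. The part of length in the result was not tested.

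The ligands of the receptors were read in the same clusters. *Cx3cl1* had its highest mean in Neurons_1, at 54.0 ± 13.1 CPM, against 33.0 ± 11.3 CPM in the microglial cluster, whose TRα1+m library of repeat 1 was above that of Neurons_1 (48.3 against 44.9 CPM). *Csf1* was highest in oligodendrocytes, at 57.9 ± 18.4 CPM. *Il34* was at 18.4 ± 1.37 CPM in Neurons_1 and at 72.3 ± 11.5 CPM in the microglial cluster, which also held the markers of other cells given above. None of the 3 was called between genotypes in a cluster where it was tested.

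The genes most like each member were sought among 11358 genes of at least 10 CPM in the microglial cluster, by Pearson's r of log2(CPM + 1) over 20 sums (4 libraries in 5 clusters, which share libraries). *Laptm5*, a panel gene for a lysosomal membrane protein, came first for *C1qa* (r = 0.993), *C1qb* (0.993), *C1qc* (0.986), *Trem2* (0.985) and *Tmem119* (0.982). For *Csf1r* it was *Fcgr3* (0.991), an Fc receptor gene, followed by *Pld4* and *Ly86*. *Cx3cr1* was closest to *Ly86* (0.990), *Cd37* and *Sash3*. The pattern of *P2ry12* was closest to those of *Hpgds* (0.982), *Pla2g15* and *Asb2*, none of which was among the first 3 of another member. Further places were held by *Fcgr3* for *C1qa*, *Fcer1g* and *Tmem173* for *C1qb*, *Fcgr3* and *Ctss* for *C1qc*, *P2ry13* and *Pld4* for *Tmem119*, and *P2ry13* and *Fcgr3* for *Trem2*.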

How the data were processed

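Hypothalamic nuclei of 4 libraries, each a pool of 3 mice, were sequenced with 10x chemistry. Cell Ranger 5.0.1, with introns included and mm10 (GRCm38) as reference, gave the deposited UMI counts, which are raw. Whether strand was used in counting is not given in the sources used here. The deposited annotation gives the main cluster of each nucleus that the authors kept after filters on counts, features, mitochondrial share and doublet score, made with Seurat. It was used as given, with no further doublet call. Another 11804 barcodes had no annotation.

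Barcodes were joined to the annotation, and UMIs were summed per library and cluster in Python 3.11.15 (pandas 2.3.3, scipy 1.17.1, numpy 2.4.6). Replicates are pools of mice. Sums were tested two-sided in edgeR 4.0.16 (R 4.3.3) by the robust quasi-likelihood F-test, after filterByExpr and TMM scaling, with Benjamini-Hochberg adjustment over all tested genes at 0.05 (2 residual degrees of freedom, or 1 with both genotype and repeat in the model). The repeat comparison had genotype in the model. SEs are the absolute log2 fold change over the square root of F. The genotype fit was also run on counts simulated without a difference between repeats. Its power in the real libraries, which differed between repeats, was not assessed by this. Neurons_2 and the non-neuronal cluster were not tested, because libraries held fewer than 10 nuclei or the authors set the cluster aside. Thinned nuclei hold 900 UMIs.

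The paper places a library of each genotype in each experimental repeat, so the numbers pair the libraries. Across genes the differences between repeats correlated between the genotypes (Pearson r 0.371 in the microglial cluster and 0.486 to 0.767 in the other 4). Genotype was tested without a block, and alternatives were the block, scaling by RLE, DESeq2 1.42.0, all genes unfiltered, a bias-adjusted fit, thinning, equal numbers of nuclei and each library left out. Tests of the repeat outside the microglial cluster, the interaction, and for the repeat the thinned, panel, bias-adjusted and no-genotype fits were chosen after seeing the data. The 8 genes and the lists were chosen with earlier results of these data known. From each other list genes called between genotypes were named, then the 2 highest in the microglial cluster, and names beyond this, except for the 3 most alike genes per member, were chosen after their values were seen. Some genes that this rule names are not reported here. The exact binomial intervals are at 95%. RefSeq promoters were found for 5 of the 8 genes, and 32158 of 32285 gene IDs matched GENCODE M21.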

Additional observations from a re-analysis of the deposited data

Results flagged for a closer look

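The difference between experimental repeats differed between the microglial cluster and other cell types, by an interaction test in edgeR with Benjamini-Hochberg adjustment. Against Neurons_1 the gap in log2 fold change was 3.20 for *C1qa*, 3.22 for *C1qb*, 3.12 for *C1qc*, 2.89 for *Trem2*, 2.99 for *Tmem119*, 1.64 for *Csf1r*, 0.76 for *Cx3cr1* and 0.80 for *P2ry12*. Compared with astrocytes it was 3.08 for *C1qa*, 3.14 for *C1qb*, 3.33 for *C1qc*, 3.06 for *Trem2*, 3.57 for *Tmem119*, 1.73 for *Csf1r* and 1.11 for *Cx3cr1*. Compared with oligodendrocytes it was 3.46 for *C1qa*, 3.46 for *C1qb*, 3.54 for *C1qc*, 3.01 for *Trem2*, 2.90 for *Tmem119* and 1.56 for *Csf1r*. For OPCs the gap was 2.50 for *C1qa*, 3.00 for *C1qb* and 2.64 for *C1qc*.

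Barcodes that the authors left without an annotation, 11804 in all, were used in no comparison, yet they held UMIs of every member above the limit of 3 that a count of 0 allows. Over the 4 libraries they held 1971 UMIs of *C1qa*, 1774 UMIs of *P2ry12*, 1853 UMIs of *C1qb*, 1330 UMIs of *C1qc*, 1144 UMIs of *Cx3cr1*, 883 UMIs of *Csf1r*, 646 UMIs of *Trem2* and 258 UMIs of *Tmem119*. These barcodes followed the split between repeats. *C1qa* was at 30.3 CPM in wild type and 28.5 CPM in TRα1+m in repeat 1, and at 78.4 and 73.0 CPM in repeat 2. *P2ry12* was at 49.4, 44.5, 49.7 and 52.0 CPM in the same order. The C1q UMIs per *Cx3cr1* UMI were 2.88 and 2.78 in repeat 1 and 5.71 and 5.75 in repeat 2. What these barcodes hold was not tested.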

How the results depend on the processing

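Each gene was also highest in the microglial cluster in every library with CPM averaged over nuclei. No member was called between genotypes under any alternative that kept all 4 libraries. The genotype counts did move. In the microglial cluster 9 genes were called without the filter on low counts, 35 with the replicate block, and 0 to 72 with a library left out. DESeq2 called 1 gene each in Neurons_1, astrocytes and OPCs and 72 in oligodendrocytes. Without the filter 1 was called in astrocytes, 120 in oligodendrocytes and 11 in OPCs. With the replicate block Neurons_1 had 2 calls, astrocytes 190, oligodendrocytes 550, OPCs 64 and panel nuclei 1. Leaving out each library in turn gave 0 to 196 in oligodendrocytes, 1 to 8 in OPCs and 0 to 6 in panel nuclei, with 0 in every such fit in Neurons_1 and astrocytes. Such a fit leaves an arm with 1 library, assumed to vary like the other group.

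The sign of the genotype difference depended on which library was left out, since the repeats then weigh unequally. Log2 fold changes ranged from -0.41 to 0.53 for *Cx3cr1*, -0.43 to 0.44 for *P2ry12*, -0.86 to 0.63 for *Csf1r*, -1.68 to 1.95 for *Tmem119*, -1.64 to 2.10 for *Trem2*, -1.79 to 1.69 for *C1qa*, -1.86 to 1.78 for *C1qb* and -1.75 to 1.64 for *C1qc*. With the replicate block *Csf1r* changed sign, to -0.027.

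Between repeats 655 genes were called in the microglial cluster, against 108 in DESeq2, 370 without a genotype term, 244 in thinned nuclei and 259 to 919 with a library left out. Direction held for each member in every alternative, and the C1q chains, *Trem2* and *Tmem119* passed in each. *Cx3cr1* and *P2ry12* passed without the wild-type library of repeat 2 (0.76 and 0.70). At least 1 UMI of a member was found in 75.7% of the cluster's nuclei (SD 3.53 over libraries), in 72.1% after thinning and in 95.9% of panel nuclei. With 5 cluster means in place of 20 sums, 1 of the 24 most alike genes was kept. The cause of these shifts was not tested. Low counts of *Tmem119*, at 29 UMIs in the smallest library, limit what could be seen of it.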
